A study of Mus musculus with 10 samples.

Results

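The testis of mice killed 5 h after an injection of trichostatin A was compared with the testis of mice that received the carrier alone. All samples were testis RNA of male BALB/c mice, 9 weeks old, and 3 mice formed each of 5 groups (15 mice in all). Mice of the 5 h group received 60 µg of trichostatin A (TSA) per mouse in a single injection under the skin. Control mice received dimethylsulfoxide and phosphate buffered saline, the carrier of the drug, and were killed at 10 h, so the control was not matched in time to the 5 h group. TSA at the same dose had been given to 3 further groups, killed at 2.5, 7.5 and 10 h, which serve here only to show where the 5 h group stood apart. Before labelling, RNA from the 3 mice was mixed into 1 pool per group, and each pool was read on 2 CodeLink arrays as a technical duplicate. The comparison therefore rests on 4 of the 10 arrays, those labelled TSA 5 h and control, and on 1 pool (n = 1) on each side. A level that stands apart in 1 mouse of a pool cannot be told apart from one shared by all 3.

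Histone deacetylases remove acetyl groups from the tails of histones, which packs chromatin more tightly, and they also act on many other proteins. TSA blocks the zinc-dependent members of this family, so acetylation rises within hours and transcription of some genes goes up while that of others goes down. The adult testis consists mostly of germ cells at successive stages, from spermatogonia through meiotic spermatocytes to spermatids, which are supported by Sertoli cells inside the tubules and by hormone-producing Leydig cells, macrophages and vessels between them. Liver cells, by contrast, make most of the proteins of blood plasma and the enzymes of drug, amino acid and bile acid metabolism, and their transcripts are rare in most other tissues.

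Intensities, on a linear scale, were at hand for 9897 of 10012 probes and ran from 0.0004 to 249.5 around a median of 1.00. The duplicates of the control pool correlated at r = 0.997 and those of the 5 h pool at r = 0.998 across tested probes. One array varied by a standard deviation of 0.122 log2 units in the control and 0.0934 at 5 h. Errors of log2 folds below are standard errors from the duplicate arrays and hold no difference between animals. The number of arrays limits the precision of every value. In bulk RNA, fewer cells of a type and less RNA per cell cannot be told apart, and the same holds for more of either.

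Most of the largest gains in the 5 h pool were of transcripts that are abundant in liver, alongside gains and losses of genes with other functions and of probes without a symbol. A 2-fold rule was used without a p-value: a probe met it when its log2 fold was at least 1 in size and both 5 h arrays lay beyond both control arrays. Of 7422 probes that remained after the dimmest 25% were left out, 90 (1.21%) were higher and 25 (0.337%) were lower at 5 h by this rule. The filter took the mean over all 10 arrays, so a probe could pass it only because it was high at 5 h. Apoa1, Ttr and Orm1, for example, lay below its limit of 0.207 in the control and in the mean of the other TSA pools. Such probes count among the calls below too. Of the 90 higher probes, 37 belonged to 10 lists of liver genes and 53 did not, and none of the 25 lower ones was in a liver list (0 of 25). The lists do not hold every transcript of liver, so some of the 53 may be liver transcripts too. All gene lists were written with earlier results of these data known, so counts within them are not independent of the data. At 4-fold or more, 28 probes were higher, 20 of them in the liver lists, and 2 were lower. The median log2 fold of all tested probes was -0.03. Without the filter on dim probes, 221 of 9897 probes (2.23%) were higher and 134 (1.35%) lower. A test with limma across all 5 pools, in which the lone control and 5 h pools were assumed to vary like the other TSA pools, left 2 residual degrees of freedom. It called 40 probes higher at 5 h than in the control (0.539%), 26 of them in the liver lists, and 0 lower (0%) at an adjusted p under 0.05. At an unadjusted p under 0.05 the limma test gave 1119 probes, 609 higher and 510 lower. Its count of calls depended on the settings: with the dimmest 50% left out 15 probes were called, and with the 7.5 h pool, whose duplicates lay furthest apart, left out 89 were called, 14 of them lower.

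**Figure D1:**
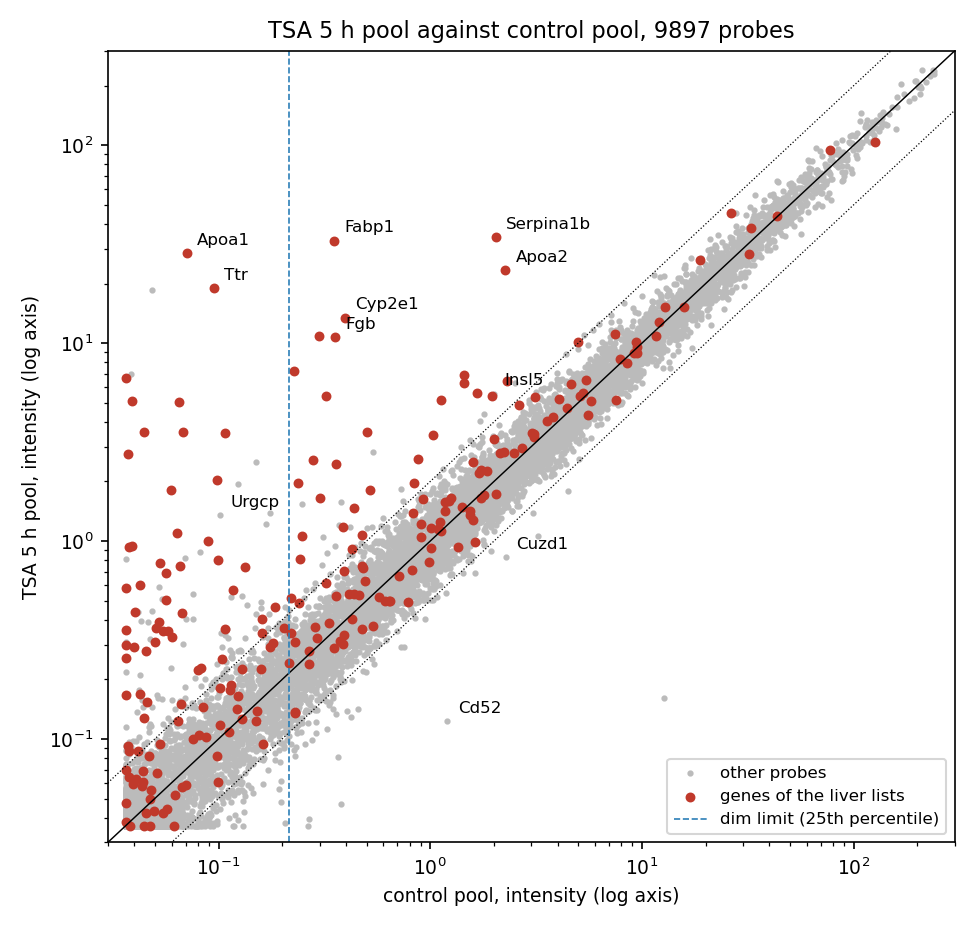
Intensity of each of 9897 probes in the control pool (horizontal, log axis) and the 5 h pool (vertical, log axis), as the mean of both arrays after the floor, with genes of the liver lists in red. The solid line marks equal intensity, dotted lines mark 2-fold differences, and the dashed line marks the dim limit of 0.215. Apoa1, Ttr and Fabp1 lie far above the line, and Cd52 lies far below it.

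Many of the gained transcripts were so dim in the control that no fold can be measured. A probe was called dim when its pool mean lay below the 25th percentile of all values (0.215), and such probes are given as at least N-fold, which is the 5 h mean over that limit. By this rule 20 of 9897 probes (0.202%) went from dim in the control to the median or more at 5 h, 13 of them in the liver lists, and 2 (0.0202%) went the other way. Dim here stands in for background flags, which were not used here.

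Apolipoproteins and other genes of lipid handling by the liver were among the gains. Of 18 measured genes 14 met the 2-fold rule upward and 0 downward (median log2 fold 1.47), against 2.31% higher and 1.24% lower among 8738 genes with 1 probe each. Among the 13 that passed the filter 9 were higher, with a median of 1.22, where 1.21% of all tested probes were higher. Apoa1 encodes the main protein of high-density lipoprotein (probe 7028, chromosome 9). Its intensity was 0.0976 and 0.0513 on the control arrays and 28.5 and 28.5 on the 5 h arrays, at least 132-fold higher (limma adjusted p = 0.00361). Apoa1 passed the filter into that test only through its 5 h arrays. Fabp1, the fatty acid binding protein of liver cells (probe 7341, chromosome 6), read 0.354 and 0.349 in the control and 33.8 and 32.1 at 5 h. This was a log2 fold of 6.55 ± 0.038 (limma adjusted p = 0.00176). Apoa2, another protein of high-density lipoprotein, was already at 2.25 and 2.28 in the control and stood at 23.4 and 23.4 at 5 h, 3.37 ± 0.010 on the log2 scale (limma adjusted p = 0.0034). Apoc3, which slows the clearance of triglyceride-rich particles, read 0.0324 and 0.0046 in the control and 6.68 and 6.60 at 5 h, at least 30.8-fold higher. That both 5 h arrays lay above both control arrays was a condition of the 2-fold rule, and the duplicates are technical.

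Where 2.31% of all genes were higher and 1.24% lower, 13 of 20 measured secreted protease inhibitors were higher and 0 lower. Their median log2 fold was 2.37, with 11 of them dim in the control, and 1.17 over the 10 that passed the filter, of which 5 were higher. Serpina1b encodes an alpha-1-antitrypsin, which protects tissues from neutrophil elastase (probe 5685, chromosome 12). It read 2.23 and 1.86 in the control and 34.4 and 34.4 at 5 h, which is 4.08 ± 0.13 in log2 fold (limma adjusted p = 0.000924). The relatives Serpina1d and Serpina1e had log2 folds of 4.98 ± 0.21 and 4.07 ± 0.15. The Serpina1 genes are near-identical copies on chromosome 12, so a probe may read more than 1 of them. With an offset of 0.5 before the logarithm, which lowers the weight of dim values, the log2 folds of Serpina1d and Serpina1e were 3.40 and 2.85. Those of Fabp1, Ahsg, Fgb and Cyp2e1 were 5.29, 3.82, 3.71 and 3.96 on that scale. Ahsg, the plasma glycoprotein fetuin-A, went from 0.293 and 0.305 to 10.9 and 10.7 (5.17 ± 0.029, limma adjusted p = 0.00108). Mug1, a relative of alpha-2-macroglobulin, read 0.0561 and 0.0749 in the control and 5.05 and 5.00 at 5 h, at least 23.3-fold higher. Serpinc1, which encodes antithrombin, the brake on thrombin, was at least 16.5-fold higher, from 0.0604 and 0.0757 to 3.97 and 3.16. Kng1, the precursor of bradykinin, was at least 12.8-fold higher.

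Clotting and complement genes were higher in 17 of 31 measured and lower in 0, against 2.31% and 1.24% among all genes. Their median log2 fold was 1.17, and 16 were dim in the control. Among the 14 that passed the filter 5 were higher, with a median of 0.52. The higher measured genes included Fga and Fgb, which encode chains of fibrinogen, the protein that polymerises into the clot. Fgb (probe 9334, chromosome 3) read 0.359 and 0.354 in the control and 10.03 and 11.5 at 5 h, a log2 fold of 4.91 ± 0.099 (limma adjusted p = 0.000924). Fga read 0.0311 and 0.042 in the control and 4.99 and 5.20 at 5 h, at least 23.7-fold higher. Hrg, a histidine-rich plasma glycoprotein, read 0.0848 and 0.0416 in the control and 1.82 and 1.79 at 5 h, at least 8.40-fold higher. Hrg was also above the dim limit in the other TSA pools, with pool means of 0.317, 0.348 and 0.412 at 2.5, 7.5 and 10 h.

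Carriers and hormones of the plasma were higher in 9 of 18 measured genes and lower in 0, against 2.31% and 1.24% among all genes. Their median log2 fold was 1.14. Among the 11 that passed the filter 7 were higher, with a median of 2.19. Ttr, which carries thyroid hormone and retinol-binding protein (probe 609, chromosome 18), read 0.122 and 0.0743 in the control and 18.4 and 19.6 at 5 h, at least 88.2-fold higher (limma adjusted p = 0.0086). Ttr too passed the filter into that test only through its 5 h arrays. Hp, the haptoglobin that binds free haemoglobin, was at least 16.5-fold higher, from 0.0175 and 0.0542 to 3.52 and 3.58. Hpx, which binds free haem, went from 0.492 and 0.509 to 3.55 and 3.55 (2.83 ± 0.025, limma adjusted p = 0.00529). Trf, the iron carrier transferrin, which Sertoli cells also make, went from 1.15 and 1.11 to 5.25 and 5.10 (2.19 ± 0.031, limma adjusted p = 0.0148). Orm1, an acute phase glycoprotein, was at least 9.43-fold higher. Alb, the gene of albumin, was not analysed here.

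Enzymes of liver metabolism also held higher genes, and 0 lower ones. The shares among all genes, to be set beside the counts of measured genes below, were 2.31% higher and 1.24% lower. Among cytochrome P450 and detoxification genes 12 of 52 measured were higher and 0 lower, with a median log2 fold of 0.35. Of the 28 that passed the filter 3 were higher, with a median of 0.26. Cyp2e1, which oxidises ethanol and other small molecules (probe 2063, chromosome 7), read 0.4 and 0.388 in the control and 13.4 and 13.5 at 5 h, a log2 fold of 5.10 ± 0.023 (limma adjusted p = 0.000924). Cyp2f2 went from 1.39 and 1.49 to 6.22 and 6.37 (2.13 ± 0.052, limma adjusted p = 0.00857), whereas Cyp2d9 stayed below the 2-fold limit at 0.89 ± 0.10. Amino acid, urea and one-carbon enzymes were higher in 8 of 21 measured (median 0.83) and in 2 of the 12 that passed the filter (median 0.32). Gnmt, which uses up methyl groups of S-adenosylmethionine, went from 1.01 and 1.04 to 3.37 and 3.48 (1.74 ± 0.031, limma adjusted p = 0.0411), and Tdo2, which opens the ring of tryptophan, was at least 5.07-fold higher. Genes of glucose, bile acid and retinoid handling were higher in 6 of 16 measured and in 3 of the 8 that passed the filter. Pck1, the enzyme that commits substrate to glucose synthesis, read 0.0824 and 0.14 in the control and 3.60 and 3.45 at 5 h, at least 16.4-fold higher, and the bile salt pump Abcb11 had a log2 fold of 1.81 ± 0.030 (limma adjusted p = 0.0383). Peroxisome, fatty acid oxidation and ketone enzymes, found in many tissues, were higher in 3 of 26 and lower in 0, with a median of 0.11. Cat, the peroxisomal catalase, went from 1.67 and 1.65 to 5.50 and 5.65 (1.75 ± 0.022, limma adjusted p = 0.0135), while Acadm, a mitochondrial fatty acid dehydrogenase, stood at -0.72 ± 0.16.

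**Figure D2:**
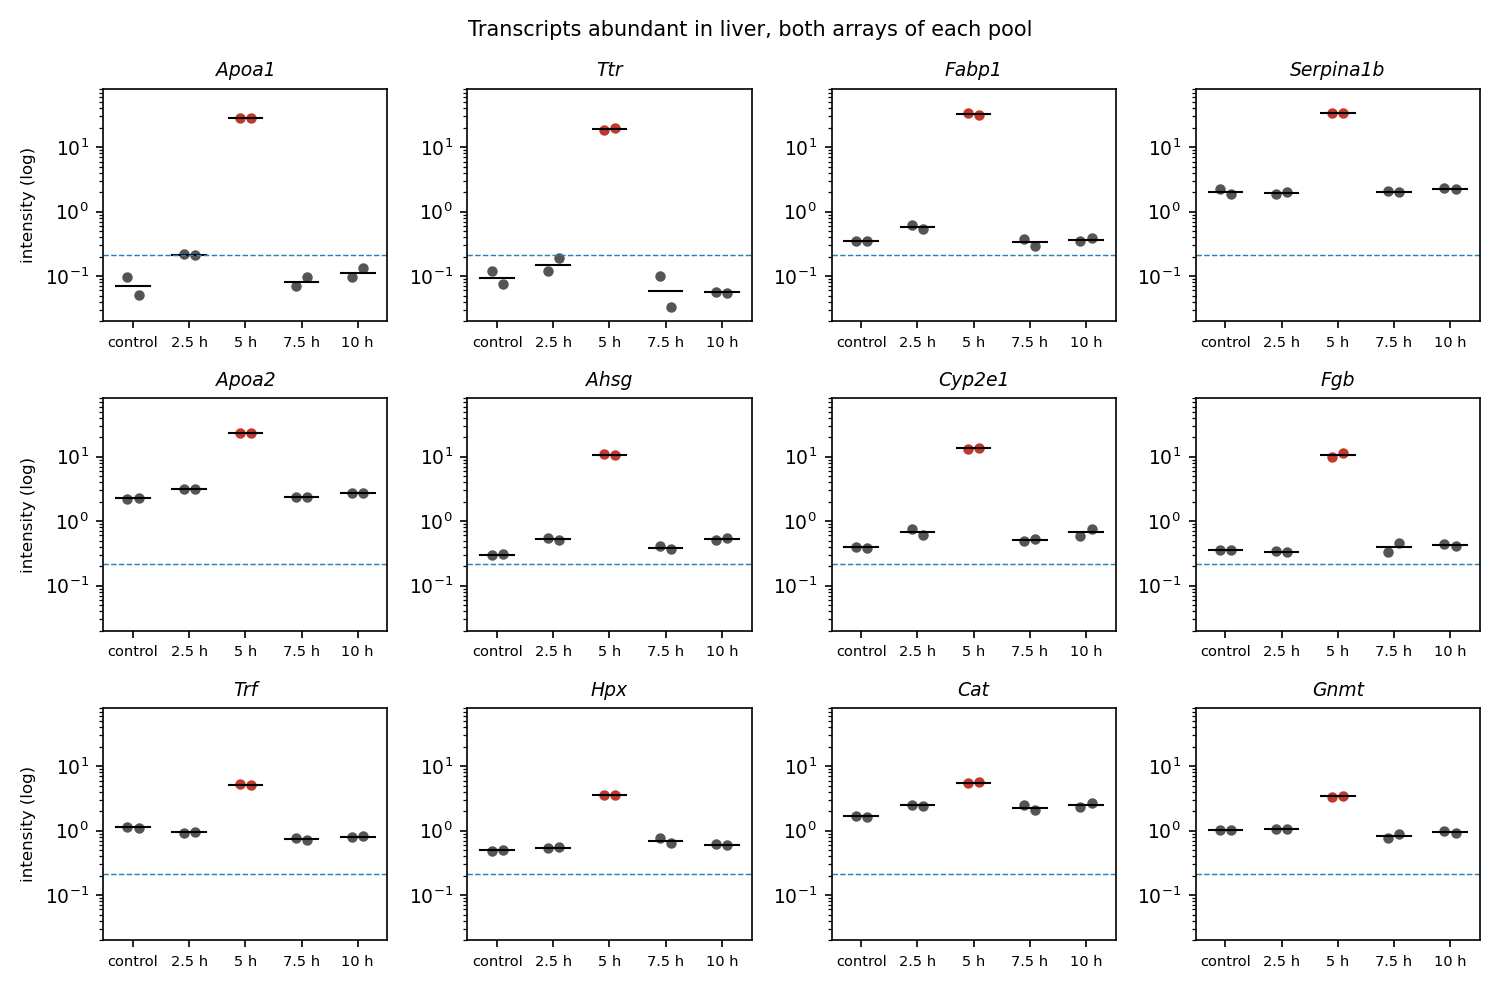
Intensity on both arrays of each pool (points, log axis, same scale in all panels) for 12 genes of the liver lists, with the mean of each pool as a bar, the 5 h arrays in red and the dim limit of 0.215 dashed. In every panel both 5 h arrays lie above all 8 other arrays.

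Of 13 measured transcription factors that liver cells use, 0 were higher and 0 lower, against 2.31% and 1.24% among all genes. At those shares a list this short would hold few such genes or none. The median log2 fold of the 13 was 0.08. In the control 7 of the 13 were dim, and the 7 that passed the filter had a median of 0.22, with 6 above 0. Hnf4a, a nuclear receptor central to liver identity, had a log2 fold of 0.22, Foxa1 0.43, Cebpa -0.09 and Nr1h4, the bile acid receptor, -0.23. Markers of the other cell types of liver were higher in 1 of 15, with a median of -0.13. That gene was Clec4f, a lectin of Kupffer cells, whose pool mean went from 0.0378 to 0.0872 and was dim in both pools. Lyve1, a marker of liver sinusoids and lymphatic vessels, stood at -0.32 ± 0.034 and Epcam at 0.09.

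Over all 10 liver lists, which were written with earlier results of these data known, 83 of 230 measured genes were higher and 0 lower. The shares among all genes were 2.31% and 1.24%. The median log2 fold of the 230 was 0.48. Among the 137 that passed the filter 37 were higher. Of the 230 genes 99 were dim in the control pool and 53 were dim at 5 h. Their summed intensity, with 1 probe per gene, was 637.7 on both control arrays and 960.8 to 963.9 on the 5 h arrays. It was 683.7 to 708.5 at 2.5 h, 630.5 to 643.6 at 7.5 h and 688.1 to 696.9 at 10 h. As a share of all intensity on the array the sum was 1.03% in the control and 1.56% at 5 h, so the 5 h arrays held the highest values and the other TSA pools lay near the control. The part of liver RNA in these values was not tested.

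Marker lists of 9 other tissues held few genes past the limit. At the shares among all genes, 2.31% higher and 1.24% lower, lists this short would hold few such genes or none. None of the measured markers of kidney (17), skeletal and heart muscle (20), lung (9) and skin (10) met the rule. In each pool 14 of the kidney markers were dim. Dim in the control were also 11 of the muscle, 5 of the lung, 7 of the skin, 13 of the intestine and 9 of the pancreas markers. Epididymis and accessory glands had 0 higher and 1 lower of 9, the defensin Defb1, whose pool mean went from 0.227 to 0.0878. Intestine had 1 higher gene of 19, Fabp2, whose pool mean went from 0.0539 to 0.51. Adipose tissue had 1 of 14, Car3, which went from 0.0692 to 0.82 and is also abundant in liver, and pancreas 1 of 13, Cela1, which was dim in both pools. Blood markers had 0 higher and 1 lower of 9, and the haemoglobin gene Hba-a1 stood at -0.00076 ± 0.050. Adipoq, the adiponectin gene of fat cells, had a log2 fold of 0.26 ± 0.065.

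The promoters of the liver-list genes that were higher at 5 h are shown by 3 examples with large gains, since their windows hold letters that liver factors recognise. RefSeq windows in GRCm38.p6 run from 250 bases before to 50 bases after each transcript start, 300 bases in all, and are printed 5′ to 3′ with matches to the searched motifs in capitals.
Serpina1b (chr12:103738140-103738439, minus strand): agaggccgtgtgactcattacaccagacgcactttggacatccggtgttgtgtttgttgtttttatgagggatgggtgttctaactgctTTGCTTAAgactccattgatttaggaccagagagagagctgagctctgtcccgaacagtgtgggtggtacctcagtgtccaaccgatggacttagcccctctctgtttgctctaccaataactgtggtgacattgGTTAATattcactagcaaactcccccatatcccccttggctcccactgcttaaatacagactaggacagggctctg
Fgb (chr3:83049814-83050113, minus strand): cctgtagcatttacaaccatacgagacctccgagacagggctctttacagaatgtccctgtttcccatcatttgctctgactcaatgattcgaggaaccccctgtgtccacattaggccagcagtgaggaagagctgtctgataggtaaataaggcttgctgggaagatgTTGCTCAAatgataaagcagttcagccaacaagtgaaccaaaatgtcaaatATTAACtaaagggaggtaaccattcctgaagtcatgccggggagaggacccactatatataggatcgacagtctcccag
Fabp1 (chr6:71199629-71199928, plus strand): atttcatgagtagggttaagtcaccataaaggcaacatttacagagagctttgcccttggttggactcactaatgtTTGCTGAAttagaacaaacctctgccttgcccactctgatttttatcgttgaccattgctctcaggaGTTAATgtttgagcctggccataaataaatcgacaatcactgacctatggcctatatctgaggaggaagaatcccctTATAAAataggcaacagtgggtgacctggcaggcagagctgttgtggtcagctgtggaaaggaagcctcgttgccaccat

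Motifs were searched on both strands, and matches of different motifs could overlap. The motif GTTAAT is the half-site of the hepatocyte factor HNF1, and its first base lay at position -26 from the start in Serpina1b, -29 in Fgb (as ATTAAC) and -107 in Fabp1. TTGCNNAA, the motif of C/EBP factors, matched TTGCTTAA in Serpina1b, TTGCTCAA in Fgb and TTGCTGAA in Fabp1. A TATAAA box was found at -30 in Fabp1. Of 84 liver-list genes with any probe higher at 5 h, 65 had an entry, with 73 windows. GTTAAT was in 27.4% of these windows, against 7.1% of all 32851 windows of the table, and TTGCNNAA in 28.8% against 10.8%. The HNF4 motif CAAAGTCCA was in 2.74% against 0.475%, and the FOXA motif TGTTTAC in 6.85% against 3.65%. The GC box GGGCGG was in 16.4% against 35.7%, and the median number of CpG pairs per window was 4 against 7. Among the tested genes outside the liver lists that were higher at 5 h and within 2-fold of the other TSA pools, 31 of 40 matched, with 46 windows. There GTTAAT was in 2.17% and GGGCGG in 58.7%, with a median of 13.5 CpG pairs. Among 21 lower genes 18 matched, with 21 windows, and GGGCGG was in 66.7% and GTTAAT in 0%. These shares describe letters in the windows and were not tested. Windows of liver-list genes that were not higher at 5 h were not counted. A share that goes with membership of the liver lists therefore cannot be told apart from one that goes with the gain.

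Some genes outside the liver lists also stood apart at 5 h from the other TSA pools. The lists do not hold every transcript of liver, and H2-Q10, Asgr1 and Lect2 below are also made there. These genes are therefore not shown to be changes beyond the transcripts of liver. Over the arrays other than those at 5 h, H2-Q10, Akr1c20 and Lect2 had a mean below the filter limit of 0.207. H2-Q10, Akr1c20 and Lect2 therefore passed the filter into the tests only through their 5 h arrays. The 5 h pool was set against the mean of the 3 other TSA pools in the same limma fit, a contrast in which the control has no part. It called 32 probes higher at 5 h (0.431%), 25 of them in the liver lists, and 0 lower (0%). At an unadjusted p under 0.05 it gave 136 probes, 85 higher and 51 lower. Of the 7 called probes outside the lists, 6 had a symbol. H2-Q10, a secreted class I histocompatibility molecule that liver makes (probe 3400, chromosome 17), read 0.125 and 0.182 in the control and 2.46 and 2.55 at 5 h, at least 11.6-fold higher. Its 5 h level exceeded the other TSA pools by a log2 difference of 3.48 (limma adjusted p = 0.0023). Pcbd1, a cofactor of HNF1 that also recycles tetrahydrobiopterin, read 0.175 and 0.16 in the control and 1.16 and 1.28 at 5 h, at least 5.67-fold higher, and was above the other TSA pools by 2.31 (limma adjusted p = 0.00829). Akr1c20, an aldo-keto reductase, went from 0.251 and 0.245 to 1.49 and 1.57 and was above the other TSA pools by 3.00 (limma adjusted p = 0.00842). Nudt7, a peroxisomal hydrolase of coenzyme A, went from 0.552 and 0.524 to 2.88 and 2.77 and was above them by 1.86 (limma adjusted p = 0.0101). Asgr1, a subunit of the asialoglycoprotein receptor of liver cells, went from 0.402 and 0.358 to 1.54 and 1.62 and was above them by 1.54 (limma adjusted p = 0.0111). Lect2, a secreted protein of liver, chosen after its values were seen, was at least 2.43-fold higher than the control.

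Further genes and probes with gains at 5 h were not named from that contrast. Since the lists do not hold every transcript of liver, these too are not shown to be changes beyond the transcripts of liver. Inmt, which methylates indoles, read 0.15 and 0.101 in the control and 1.92 and 1.96 at 5 h, at least 9.01-fold higher, while the mean of the other TSA pools was 0.11. Probes 4088 and 9375, which carry no symbol and were picked after their values were seen, were at least 86.3-fold and at least 32.6-fold higher. Spp2, a secreted phosphoprotein, and the casein gene Csn1s2a had log2 folds against the control of 1.33 ± 0.12 and 1.75 ± 0.027 with limma adjusted p of 0.036 and 0.0426. Against the other TSA pools their limma adjusted p was 0.0511 and 0.0709, which missed the limit.

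**Figure D3:**
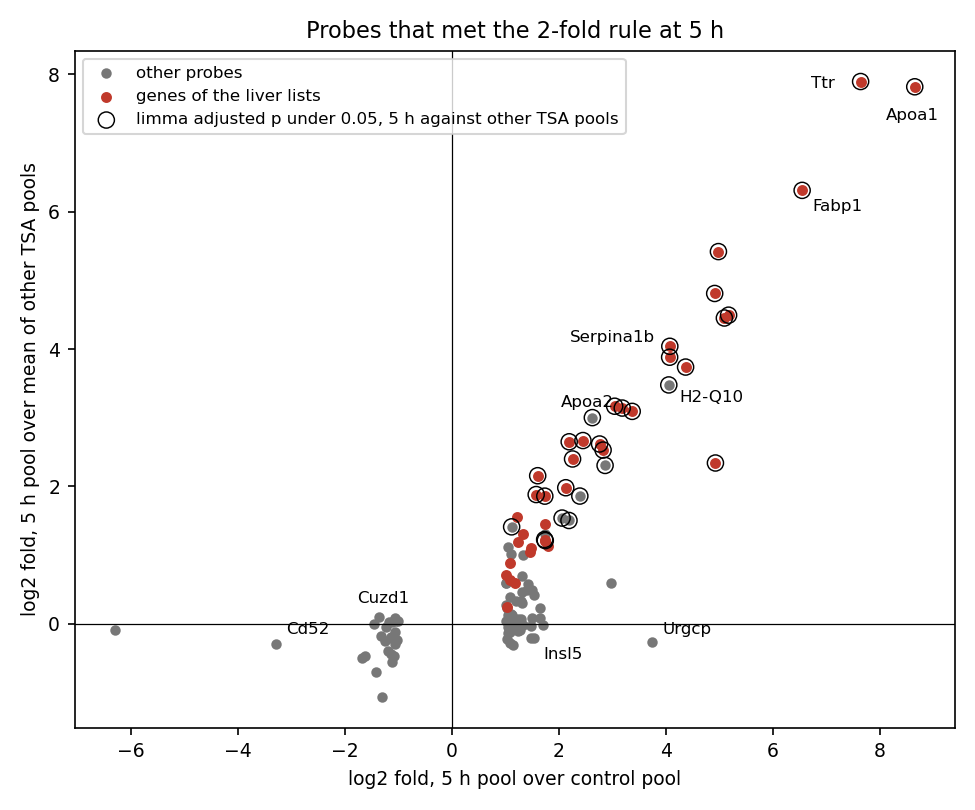
Log2 fold of the 5 h pool over the control pool (horizontal) and over the mean of the 3 other TSA pools (vertical) for the 115 tested probes that met the 2-fold rule, with genes of the liver lists in red and circles around the 32 probes that passed limma against the other TSA pools. Both axes share the 5 h pool. Most red points lie high on both axes, while most grey points lie near 0 on the vertical axis.

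The liver-list genes and the rest of the called probes differed in how far they stood from the other TSA pools. Of the 37 higher liver-list probes, 32 were at least 2-fold above the mean of the other TSA pools (median log2 difference 2.34), and 5 were within 2-fold. Of the 53 higher probes outside the lists, 42 were within 2-fold of the other TSA pools (median difference 0.22), and 24 of the 25 lower probes were within 2-fold (median -0.21). All TSA pools are set against the same control pool. A difference shared by all of them and a property of the lone control pool cannot be told apart.

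The genes that were higher at 5 h at a level near that of the other TSA pools included Insl5, Ghrl, Zmynd8, Zic2 and Col16a1. Insl5, an insulin-like peptide hormone of the gut (probe 1176, chromosome 4), read 2.00 and 2.00 in the control and 5.69 and 5.42 at 5 h. Its pool means at 2.5, 7.5 and 10 h were 5.71, 6.68 and 6.98. The log2 fold of 1.47 ± 0.035 had a limma adjusted p of 0.0531, which missed the limit. Ghrl, the precursor of the hunger hormone ghrelin, read 1.63 and 1.82 in the control and 3.79 and 4.30 at 5 h (1.23 ± 0.12, limma adjusted p = 0.118). Of 61 measured peptide hormones and receptors, 4 were higher and 1 lower, with a median of 0.17, where all genes had 2.31% higher and 1.24% lower. The other 2 higher ones with their control pools at 0.104 and 0.53 were Calcr, the calcitonin receptor, and Adcyap1r1, the receptor of the neuropeptide PACAP, at 0.292 and 1.17 in the 5 h pool.

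Zmynd8, a reader of acetylated and methylated histones (probe 10721, chromosome 2), read 2.82 and 2.23 in the control and 6.27 and 6.31 at 5 h (1.33 ± 0.17, limma adjusted p = 0.0547). It was the only 1 of 26 measured acetyltransferases, bromodomain readers and co-repressors to meet the rule, and the median of that list was -0.07. Zic2, a zinc finger factor of forebrain development, read 1.82 and 1.75 in the control and 4.61 and 4.19 at 5 h (1.30 ± 0.074, limma adjusted p = 0.12). It was the 1 higher gene among 52 Sox, forkhead, T-box, Gata and Zic regulators, of which 1 was lower. Of 87 homeobox genes 3 were higher and 3 lower, and these shares lie near those among all genes, 2.31% higher and 1.24% lower. Barx2 read 6.22 and 6.26 in the control and 12.7 and 12.2 at 5 h, just under the 2-fold limit with a log2 fold of 0.998. Col16a1, a collagen of fibril surfaces, read 1.46 and 1.62 in the control and 3.17 and 3.33 at 5 h (1.08 ± 0.083, limma adjusted p = 0.0679). That both 5 h arrays lay clear of both control arrays was a condition of the 2-fold rule. None of the genes in this paragraph and the one before it passed the limma limit against the control.

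Urgcp and Prorsd1 did pass the limma limit against the control without standing apart from the other TSA pools. Urgcp, an up-regulator of cell proliferation (probe 10719, chromosome 11), read 0.116 and 0.0889 in the control and 1.33 and 1.38 at 5 h. It was at least 6.29-fold higher (limma adjusted p = 0.0086), with pool means of 1.36, 2.13 and 1.504 at 2.5, 7.5 and 10 h. Prorsd1 (probe 10722, chromosome 11) read 0.427 and 0.319 in the control and 1.12 and 1.28 at 5 h (1.70 ± 0.23, limma adjusted p = 0.0162). The probes of Urgcp, Zmynd8 and Prorsd1 have ID numbers close together, and probes numbered above 10000 made up 6.91% of tested probes, 6.67% of the higher ones, 11.3% of the higher ones outside the liver lists and 36% of the lower ones. Their median log2 fold was -0.22 against -0.01 for the rest, and the part of this in the results was not tested. With each array centred on probes whose ID numbers are near each other, 84 probes were higher and 25 lower. Rnd3, Icosl, Anxa6 and Plscr1, dimmer genes picked after their values were seen, passed the same limma contrast with adjusted p of 0.0248, 0.018, 0.0265 and 0.0466. The 5 h duplicates of Anxa6 lay apart, at 0.689 and 1.307, with 0.351 and 0.363 in the control (1.41 ± 0.46). Icosl, the ligand of a T cell co-stimulatory receptor, was the 1 higher gene of 23 macrophage and leukocyte markers. With 2.31% of all genes higher, a list this short would hold few such genes or none. Without the probes of the liver lists, an alternative chosen after seeing the data, limma called 6 probes in place of 14 outside those lists.

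The 25 lower probes were smaller in number and in brightness. The largest difference belonged to probe 2712, which carries no symbol and was picked after its values were seen, at 12.4 and 13.1 in the control and 0.157 and 0.167 at 5 h. Cd52, a small surface protein of lymphocytes that cells of the epididymis also make (probe 621, chromosome 4), read 1.18 and 1.22 in the control and 0.142 and 0.107 at 5 h. The mean of the other TSA pools was 0.151 for Cd52 and 0.172 for probe 2712, so in both the control stood apart from all TSA pools. Limma gave adjusted p of 0.209 and 0.193 for these genes against the control. Cuzd1, a secreted or surface protein of glandular epithelia, read 2.25 and 2.31 in the control and 0.847 and 0.817 at 5 h (-1.45 ± 0.031, limma adjusted p = 0.121). 1700006A11Rik, an open reading frame gene, read 3.17 and 3.31 in the control and 1.02 and 1.09 at 5 h (-1.62 ± 0.053, limma adjusted p = 0.174). Mgll, the lipase that degrades the endocannabinoid 2-AG, stood at -1.25 ± 0.049, and Pmf1, a part of the kinetochore, at -1.14 ± 0.21. For 1700029M20Rik the duplicates lay apart, at 2.74 and 1.18 in the 5 h pool and 4.93 and 4.02 in the control (-1.31 ± 0.62, limma adjusted p = 0.108). This was the smallest limma adjusted p of any lower probe in that fit, in which 0 lower probes passed the limit. Among other settings on pool means, limma called 14 lower probes when the 7.5 h pool was left out, 3 when either other TSA pool was, 13 with an offset of 0.5 and 7 with trend and robust.

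**Figure D4:**
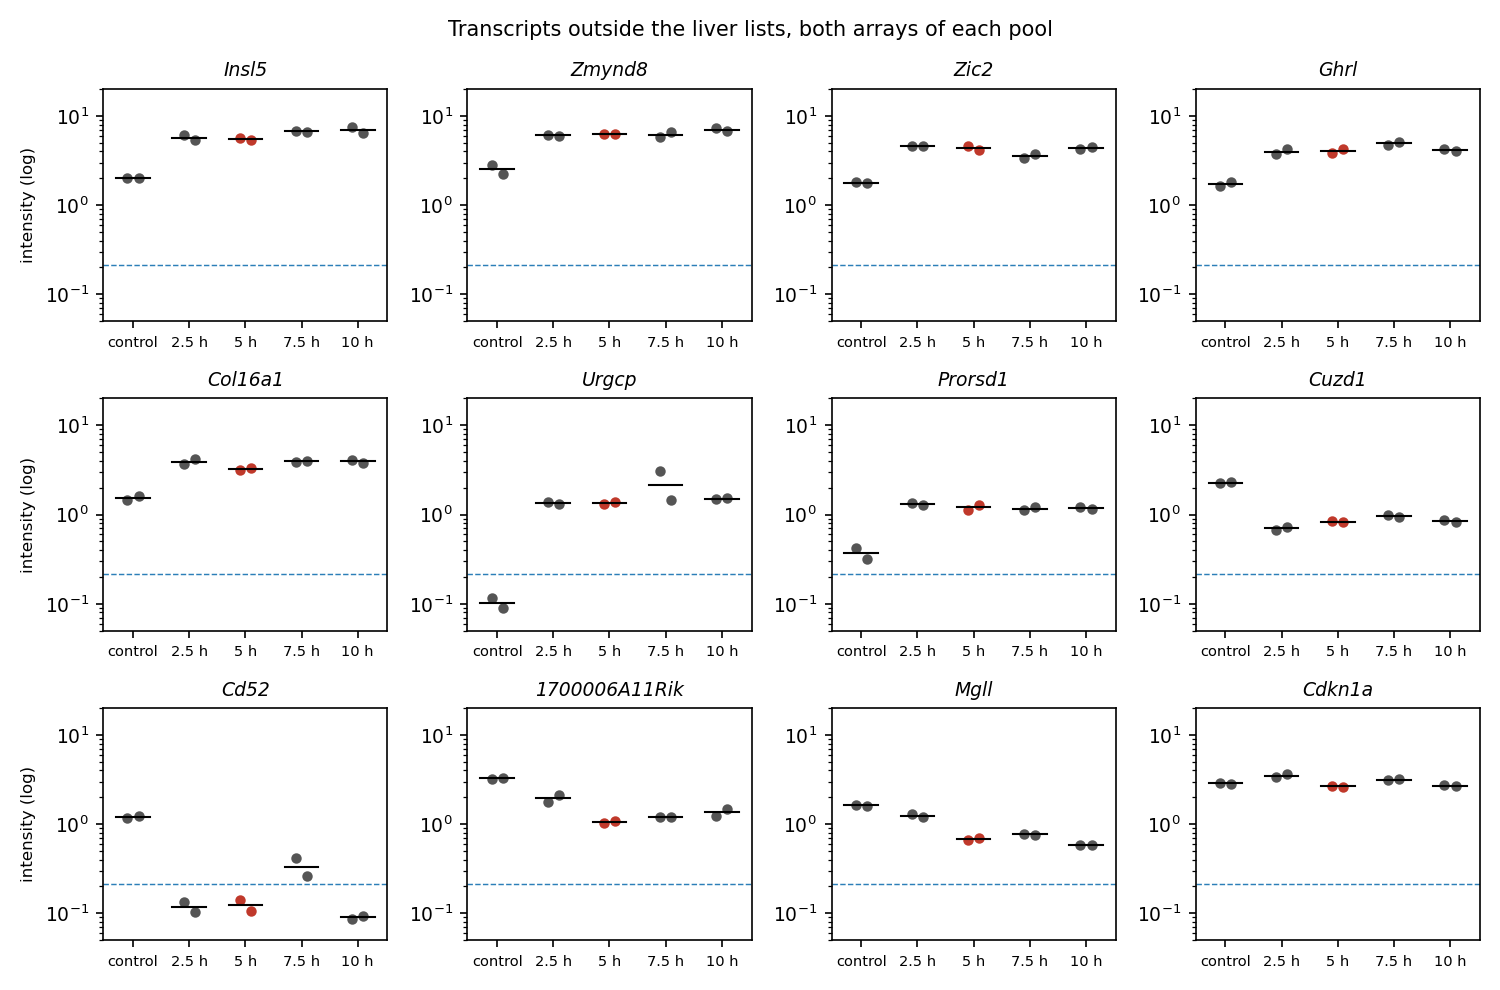
Intensity on both arrays of each pool (points, log axis, same scale in all panels) for 12 genes outside the liver lists, with the mean of each pool as a bar, the 5 h arrays in red and the dim limit of 0.215 dashed. Insl5, Zmynd8, Zic2, Ghrl, Col16a1, Urgcp and Prorsd1 lie above the control in all TSA pools, Cuzd1, Cd52, 1700006A11Rik and Mgll lie below it, and Cdkn1a lies near it.

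Genes that mark the cell types of the testis itself mostly stayed within 2-fold of the control. Of 35 measured genes of spermatids and sperm, 27 of meiotic spermatocytes, 14 of spermatogonia and 20 of peritubular and endothelial cells, 0 were higher and 0 lower. At the shares among all genes, 2.31% higher and 1.24% lower, lists of this length would hold few such genes or none. The spermatocyte list had the lowest median of these testis lists, at -0.22, with 5 of its 26 tested genes above 0. Piwil1, which binds the small RNAs of meiotic germ cells, read 13.4 and 13.7 in the control and 7.17 and 7.77 at 5 h (-0.86 ± 0.061, limma adjusted p = 0.255). Acrv1, a protein of the sperm acrosome, read 22.7 and 22.9 in the control and 34.7 and 35.9 at 5 h (0.63 ± 0.026, limma adjusted p = 0.244). Leydig cell genes had 1 higher of 15. This was Hsd11b1, which activates glucocorticoids and is also abundant in liver, and its pool mean went from 0.0522 to 0.39. Star, which brings cholesterol into mitochondria for steroid synthesis, stood at -0.34 ± 0.065. Sertoli cell genes had 2 higher of 22, Trf and the keratin Krt18. Piwil1 and Acrv1, germ cell markers of the labelled tissue, read above the array median on all 4 arrays.

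Genes that are known to respond to HDAC inhibitors in other cells did not meet the rule upward. Of 26 measured, 0 were higher and 1 was lower, with a median of -0.05, against 2.31% higher and 1.24% lower among all genes. At those shares a list of this length would hold few such genes or none, so these counts do not show an absence of response. The summed intensity of the list was 83.75 to 84.24 on the control arrays and 95.67 to 96.29 on the 5 h arrays. Cdkn1a, the cell cycle inhibitor p21 and a classic target, read 2.92 and 2.80 in the control and 2.68 and 2.63 at 5 h, a log2 fold of -0.11 ± 0.035. Gsn, the actin-severing protein gelsolin, read 12.5 and 12.6 in the control and 16.03 and 15.9 at 5 h (0.35 ± 0.0070). Both 5 h arrays of Cdkn1a lay below both control arrays and those of Gsn lay above, and limma gave adjusted p of 0.84 and 0.389.

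Of 13 measured histone deacetylases and sirtuins, the family that holds the drug's targets, 0 were higher and 0 lower. The shares among all genes were 2.31% and 1.24%, so a list this short would hold few such genes or none. The median was -0.46 over the 13 and -0.32 over the 10 that passed the filter. Hdac1 read 3.89 and 3.64 in the control and 4.09 and 3.69 at 5 h (0.05 ± 0.088), so its arrays overlapped, as did those of Hdac2 (-0.06 ± 0.048). Hdac3, the catalytic part of the nuclear receptor co-repressor, read 2.30 and 2.22 in the control and 1.65 and 1.64 at 5 h (-0.46 ± 0.027, limma adjusted p = 0.3). Sirt1 and Sirt3, deacetylases that TSA does not block, stood at -0.48 ± 0.038 and -0.59 ± 0.0085. Hdac6, which acts on tubulin in the cytoplasm, stood at 0.34 ± 0.12 and Hdac5 at 0.21 ± 0.016.

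Stress and housekeeping lists gave few or no genes past the limit. None of 29 p53 targets and apoptosis genes, 37 heat shock proteins and chaperones, 53 cell cycle genes, 14 cholesterol synthesis enzymes or 54 ribosomal protein genes met it. DNA break signalling and repair genes had 0 higher and 3 lower of 39 with a median of -0.24, and all 3 (Trp53bp1, Xrcc5 and Rad52) were too dim for the filter. Of 28 acute phase and interferon genes 5 were higher and 1 lower, and the higher ones were the plasma proteins Hp, Orm1, Apcs, Hpx and Saa1. Clock genes had 0 higher and 1 lower of 18, and immediate early and glucocorticoid response genes had 1 higher of 30. Glycolysis enzymes had 1 higher of 23, the lactate carrier Slc16a3, and Gapdh stood at 0.50 ± 0.029. Keratins, S100 proteins, claudins and related epithelial genes had 4 higher and 2 lower of 41, ion channels 2 and 1 of 64, neuron genes 1 and 0 of 41, and collagens and matrix genes 1 and 1 of 50. Against the 2.31% higher and 1.24% lower among all genes with 1 probe, these shares rest on 1 to 5 genes each.

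**Figure D5:**
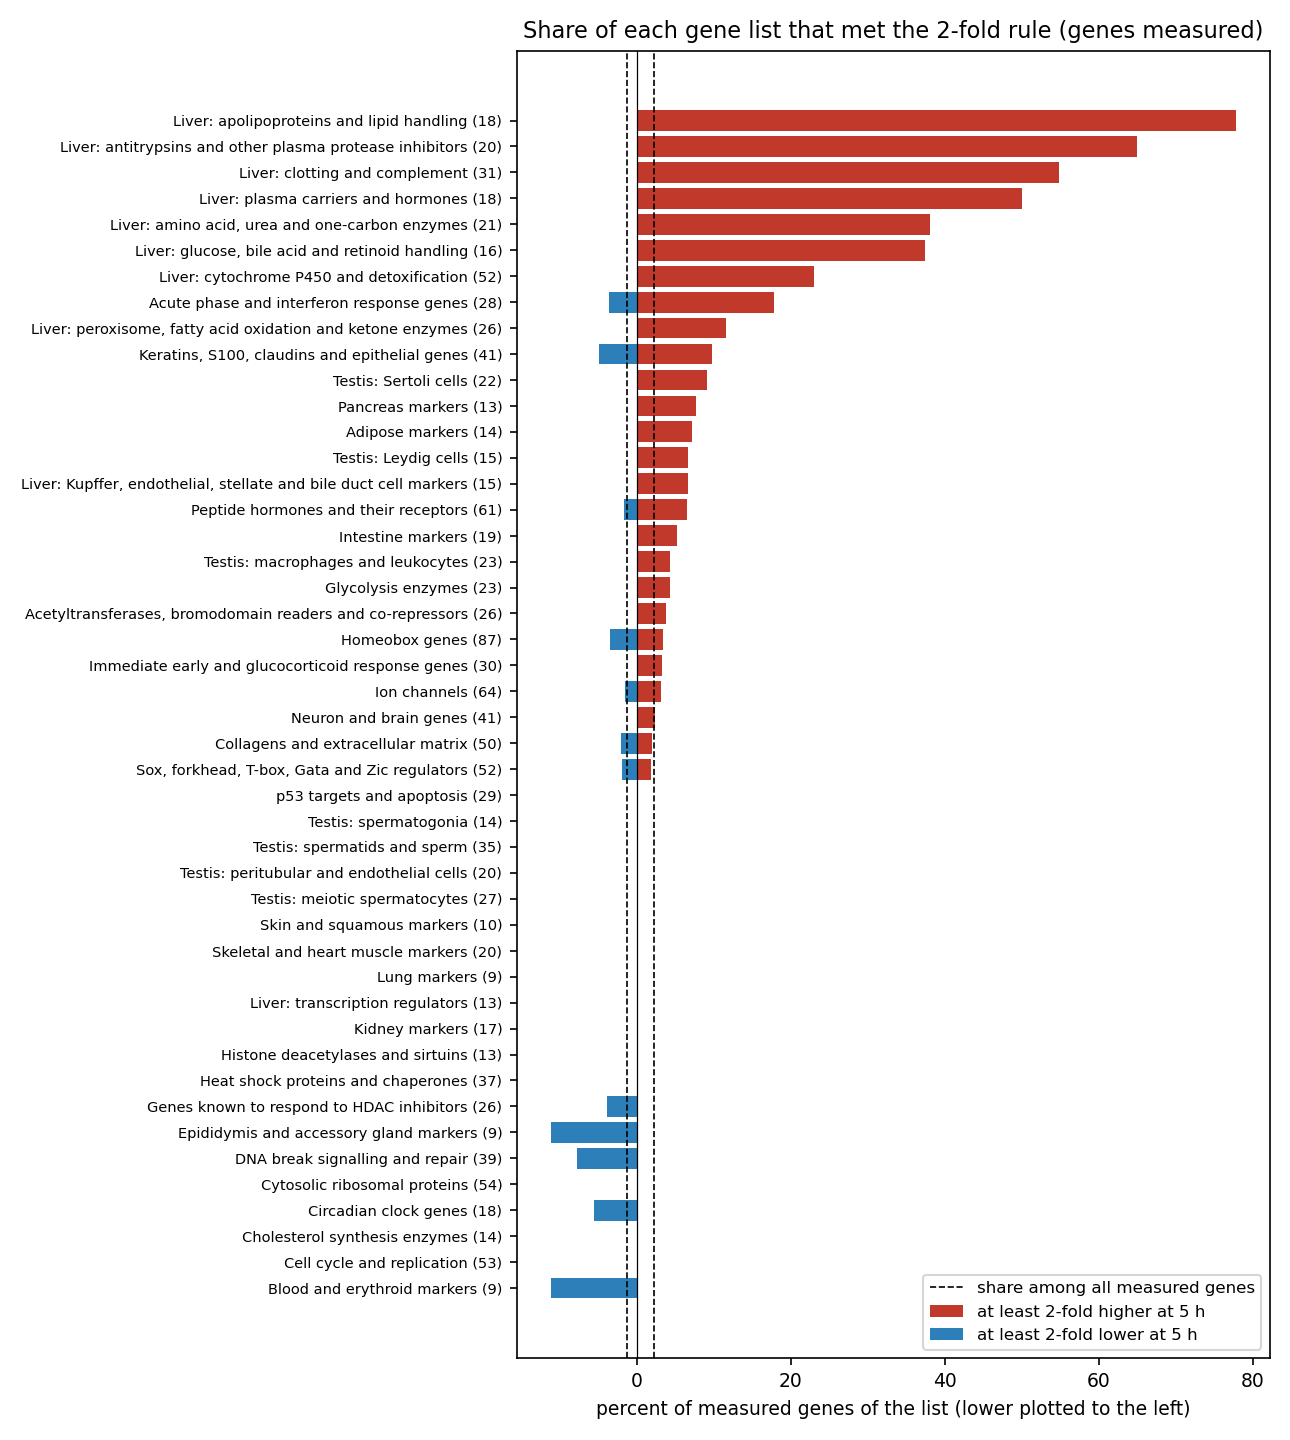
Percent of the measured genes of each list that were at least 2-fold higher (red, right of 0) or lower (blue, left of 0) at 5 h, with the number of measured genes in brackets and dashed lines at the shares among all 8738 genes, 2.31% and 1.24%. The lists of liver plasma proteins and metabolic enzymes reach furthest to the right, and the lists of liver regulators and of testis germ cells stand at 0. At the shares among all genes, lists that short would hold few such genes or none.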

How the data were processed

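The members of this comparison and the gene lists were chosen with earlier results of these data known. Testis RNA pools were read on CodeLink 1-channel arrays, and the deposited values are normalised intensity on a linear scale. Once sorted, the 10 arrays held the same values (largest difference 0), as quantile normalisation gives. Scanning, background correction and spot flags were not given in the sources used here. In all 115 probes had no value. Symbols came from the platform annotation updated through a mouse gene table (8975 probes by gene identifier, 6 by symbol, 2 from the platform alone). In all 8983 probes had 1 symbol, 1 had several and 1028 had none.

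A floor was set at the 5th percentile (0.0364), and log2 values were shifted to a common median. Probes whose mean over all 10 arrays, the 5 h arrays among them, was not above the 25th percentile of probe means (0.207) were dropped. This left 7422 probes for 6573 genes. Replicates were technical, so p-values from limma 3.58.1 (R 4.3.3, two-sided, Benjamini-Hochberg over all tested probes) rest on 5 pool means, with control, 5 h and other TSA pools as 3 groups. Each of the 46 lists was counted on 1 probe per gene, the brightest, among all measured probes, filter or not, and list medians are over those genes. Same-numbered arrays did not deviate together (r between -0.187 and 0.14 over 10 pairs of pools), so the numbers do not pair arrays. The methods were checked on simulated data in which every pool was given the spread of the other TSA pools. That check therefore cannot cover the assumption that the lone control and 5 h pools vary like them.

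Genes named were those with 1 symbol that fell under a rule of size, brightness (intensity of 1 or more in the higher pool), limma calls and list membership (up to 4 a list), plus 20 always named, of which Hdac4, H1f0 and Alb were not analysed here. Dim list members, unnamed probes, Rnd3, Icosl, Anxa6, Plscr1, Lect2 and members of the liver regulator lists were named after their values were seen. Alternatives were other floors, offsets, filters, fold limits, left-out arrays and pools, arrays as samples with a replicate block, other limma settings, and centring on probes of like ID in 50 bins. Python 3.11.15 and matplotlib 3.10.9 drew the figures.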

Additional observations from a re-analysis of the deposited data

Results flagged for a closer look

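Genes named above whose 5 h level differed from that of the other 3 TSA pools, by limma with an adjusted p under 0.05, are listed here with their log2 difference (5 h minus the mean of the other TSA pools). The contrast assumes that the lone 5 h pool varies like the others. Apoa1, Ttr and Orm1 passed the filter into it only through their 5 h arrays. Serpina1d, H2-Q10 and Akr1c20 had a mean below the filter limit of 0.207 over the arrays other than those at 5 h. They too therefore passed the filter only through their 5 h arrays. Among genes of lipid handling and plasma carriers the differences were 7.82 for Apoa1, 7.90 for Ttr, 6.31 for Fabp1, 3.09 for Apoa2, 2.53 for Hpx and 2.65 for Trf. Among protease inhibitors and clotting genes they were 4.49 for Ahsg, 5.42 for Serpina1d, 4.04 for Serpina1b, 3.88 for Serpina1e, 4.81 for Fgb and 2.34 for Hrg, and the acute phase gene Orm1 stood at 3.74. Among enzymes and transporters they were 4.45 for Cyp2e1, 1.98 for Cyp2f2, 2.15 for Cyp2c29, 2.67 for the fatty acid transporter Slc27a2, 1.21 for Cat and 1.86 for Gnmt. Outside the liver lists they were 3.48 for H2-Q10, 2.31 for Pcbd1, 3.00 for Akr1c20, 1.86 for Nudt7 and 1.54 for Asgr1. Of these 24 genes, Cyp2c29 missed the limma limit against the control (adjusted p = 0.0655).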

How the results depend on the processing

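Counts by the 2-fold rule followed the fold limit and the treatment of dim probes. Against 90 higher and 25 lower tested probes, with 37 of the higher ones in the liver lists, there were 38, 5 and 27 with an offset of 0.5, and 221, 134 and 84 without the filter. With the dimmest 50% left out there were 22, 5 and 11, and with both pools above the array median 18, 3 and 10. A limit of 1.5-fold gave 390 higher and 340 lower and one of 3-fold 38 and 4. Without the liver lists 53 were higher. With single arrays left out, higher counts ranged from 92 to 100, lower ones from 26 to 32 and those of the liver lists from 36 to 38. The 20 probes raised from a dim control became 6 with a dim limit at the 10th percentile and 7 with a 5 h level at the 75th percentile or more.

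Limma against the control called 40 probes, 24 without the filter (9 of them shared), 15 with the dimmest 50% left out (9 shared), 91 with the offset, 87 with trend and robust, 89 without the 7.5 h pool and 6 without the liver lists. With arrays left out it called 39 to 44. Against the other TSA pools it called 32, then 9 with the dimmest 50% left out and 6 without the liver lists, and 32 to 37 with 5 h arrays left out. With technical arrays taken as samples limma called 3282 and 428 probes, and with a replicate block 3204 and 298, since the spread between duplicates then stands in for that between pools. The cause of the other moves was not tested. Under 7 alternatives 0 of the 58 named genes that met the rule reversed direction. The offset moved the log2 folds of Hpx, Abcb11 and Csn1s2a to 2.02, 1.18 and 0.93, and took 15 of 58 such genes below 2-fold, among them Prorsd1, Col16a1, Mgll and Pmf1, and centring by ID took 3, Adcyap1r1, Ube2v1 and 4921524J17Rik. The numbers of the duplicates do not pair arrays. Signal over background could not be read from the values, which limits what can be said of dim probes.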
